A study of Homo sapiens with 3 samples.

Results

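The genes described here are SLC7A11 and 9 genes that act with it in cystine uptake, glutathione synthesis and the NRF2 antioxidant response, namely SLC3A2, GCLC, GCLM, GPX4, TXNRD1, NQO1, HMOX1, NFE2L2 and KEAP1. They were found by gene name in the count tables, and all 10 were among the 58735 genes listed. All 10 also passed the filter of at least 10 counts summed over the libraries, which left 19849 genes, and the stricter level of a mean of at least 100 counts, which left 10861. SLC7A11 was chosen by its measured values, because the control had the most of it, PD-L1 knockdown 1 less and PD-L1 knockdown 2 the least. Its values are therefore given as a description without a test, whereas the other 9 genes were chosen by what they are known to do.

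The study asked what PD-L1, the immune checkpoint ligand encoded by CD274, does inside castration-resistant prostate cancer cells. RNA-seq was made from DU145, an established androgen-independent line of human prostate cancer. There was 1 control library, and there were 2 libraries of cells labelled PD-L1 knockdown 1 and PD-L1 knockdown 2. The RNA-seq methods write the knockdown cells as PD-L1sh1/2, which reads as 2 short hairpin RNAs, while 1 hairpin sequence is listed. A difference between the 2 knockdown libraries cannot be told apart from one between hairpins. According to the methods, knockdown lines were made with a lentiviral pLKO.1 vector against PD-L1 and puromycin selection, and the empty vector served as their control. Whether the sequenced control carried that empty vector is not stated for the RNA-seq, where it is called DU145 only. No source states that the libraries labelled knockdown came from separate cultures, and the control has no replicate, so that p-values measure only the spread between these libraries.

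The count totals lay between 14733088 and 15786457. CD274 had 204 counts in the control, 213 in PD-L1 knockdown 1 and 224 in PD-L1 knockdown 2, so the RNA of the target gene was not lower and each library goes by its label. The methods state that the stable lines were checked for PD-L1 protein by Western blotting, which was not analysed here. Other entries also disagree, since RBM45 stands in the heading of the counts of the control, the thyroid line BCPAP in the series text, and a different medium in the labels than in the methods. The epithelial genes KRT8, KRT18, KRT19, EPCAM and CDH1 were present in every library. KLK2, KLK3 and TMPRSS2, genes of androgen-dependent prostate cells, had 0 counts in all 3 libraries, which allows up to 3 counts each. Of 7 thyroid genes, NKX2-1 had 1833, 2118 and 2590 counts and FOXE1 had 738, 645 and 720. The summed level of 9 marker genes of blood, endothelial and fibroblast cells was between 0.821 and 1.04 FPKM, and only COL1A1 among them reached a mean of 100 counts. FPKM, a level per length of the gene and depth of the library, sets genes of different length on a common scale.

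Cells import cystine through system xc-, a pair of proteins in which SLC7A11 is the light chain that exchanges cystine for glutamate and SLC3A2 is the heavy chain that carries it to the membrane. Cystine is reduced to cysteine, which the ligase of GCLC and GCLM joins to glutamate as the first and limiting step of glutathione synthesis. GPX4 uses glutathione to reduce lipid peroxides and so guards against ferroptosis. The transcription factor NRF2, encoded by NFE2L2, binds antioxidant response elements near SLC7A11, GCLC, GCLM, TXNRD1, NQO1 and HMOX1, and KEAP1 marks NRF2 for degradation until oxidants or electrophiles stop it.

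The core letters of the antioxidant response element are shown because they are what joins many of these genes to NRF2. In the RefSeq promoters of GRCh38.p14, each reaching from 250 bases before to 50 bases after a gene's start, TGACNNNGC was searched on both strands. There were 15 promoters of 8 of the 10 genes. No promoter was available for SLC7A11 or HMOX1, so neither gene was searched and nothing is said of the element there. The letters were present in 5 of these 15 promoters, from 4 genes, against 13.3% of all 35116 promoters. GCLC, GPX4, NQO1 and NFE2L2 were searched and had no match within these promoters. The windows below hold 30 bases each in the direction of the gene, with the matched letters in capitals. Distances are counted from the start of each RefSeq promoter. For SLC3A2, GCLM and KEAP1 that start lies inside the gene span given further below and not at its end. A match is a description of letters and not a shown binding site.
SLC3A2, plus strand, chr11:62881652-62881681, match starting 37 bases before the start: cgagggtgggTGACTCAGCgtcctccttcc
GCLM, minus strand, chr1:93909445-93909474, match starting 34 bases before the start: tacgatttctGCTTAGTCAttgtcttccag
TXNRD1, plus strand, chr12:104215670-104215699, match starting 99 bases before the start: acacgggctaTGACTTCGCtgttgtcaccg
TXNRD1, plus strand, chr12:104215761-104215790, match starting 8 bases before the start: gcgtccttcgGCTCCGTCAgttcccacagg
TXNRD1, plus strand, from a start farther downstream, chr12:104286920-104286949, match starting 102 bases before it: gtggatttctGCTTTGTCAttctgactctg
KEAP1, minus strand, chr19:10502806-10502835, match starting 54 bases before the start: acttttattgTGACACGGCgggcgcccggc
KEAP1, minus strand, chr19:10502783-10502812, match starting 31 bases before the start: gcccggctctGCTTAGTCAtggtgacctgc
The windows of GCLM, of the downstream start of TXNRD1 and of the second of KEAP1 hold the element on the opposite strand, as does the window at the upstream start of TXNRD1 closest to that start. The core of the element bound by CEBP and ATF factors, TGATGNAA, was searched in the same way and was present in 1 promoter, of SLC3A2, against 3.62% of all promoters.

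SLC7A11 (ENSG00000151012), on the minus strand of chromosome 4 of GRCh38 from 138164097 to 138242349, had 2702 counts in the control, 2099 in PD-L1 knockdown 1 and 1505 in PD-L1 knockdown 2. Scaled for gene length these were 18.9, 14.7 and 9.88 FPKM, so both libraries labelled knockdown were below the control and PD-L1 knockdown 2 was the lower of them. The ratio to the control was 0.780 (exact 95% counting interval 0.737 to 0.826) in PD-L1 knockdown 1 and 0.520 (0.488 to 0.554) in PD-L1 knockdown 2, and the ratio of PD-L1 knockdown 2 to PD-L1 knockdown 1 was 0.667 (0.624 to 0.713). All such intervals cover counting error only, since reads amplified by PCR were counted with no molecular identifiers and need not be independent. The log2 fold change of both libraries together was -0.62. Among the 10861 genes of a mean of at least 100 counts, its ratio was the 340th lowest in PD-L1 knockdown 1 and the 13th lowest in PD-L1 knockdown 2. In bulk RNA, fewer cells that express a gene and less of its RNA per cell cannot be told apart. The antisense gene SLC7A11-AS1 overlaps SLC7A11 and had 55, 45 and 31 counts, and whether the counting used strand is not given in the sources used here, so reads of that pair cannot be told apart.

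The ratios of all genes moved with base composition, and SLC7A11 lies at one end of that scale. The longest transcript of SLC7A11 has 35.4% GC, in the lowest of 20 equal classes of GC content, and its listed length of 9645 bases falls in class 18 of 20. Over the 20 GC classes the mean log2 ratio of PD-L1 knockdown 2 to the control ran from -0.26 in the class around 35.5% to 0.34 in the class around 65.5%, and that of PD-L1 knockdown 1 ran from -0.14 to 0.18. With the trends in GC content and length removed, the SLC7A11 ratio was 0.894 (0.844 to 0.946) in PD-L1 knockdown 1 and 0.648 (0.608 to 0.690) in PD-L1 knockdown 2. Both remained below 1, at ranks 1608 and 69 of 10861 from the lowest. The log2 fold change of both libraries together was then -0.38. The plot of ratio by GC content shows this for all 10 genes.

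**Figure D1:**
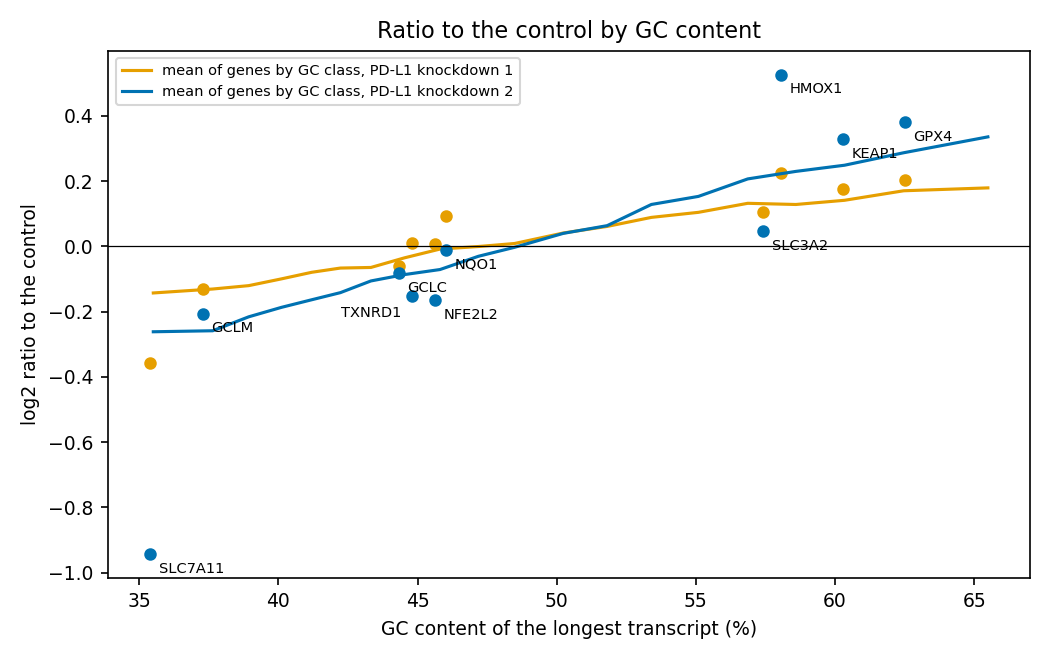
The x axis is the GC content of each gene's longest transcript in percent and the y axis the log2 ratio to the control. Points are the 10 genes and lines the means of genes in 20 GC classes, in orange for PD-L1 knockdown 1 and blue for PD-L1 knockdown 2. SLC7A11 at 35.4% GC lies below both lines, at -0.36 and -0.94, while GCLM, GCLC, NQO1, KEAP1 and GPX4 lie near them. In PD-L1 knockdown 2, HMOX1 lies above the line, at 0.53 where the mean of its class is 0.23. SLC3A2 lies below that line, at 0.05 where the mean of its class is 0.21.

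SLC3A2, the heavy chain that pairs with SLC7A11, lies on chromosome 11 from 62856102 to 62888875 and had 3523, 3777 and 3895 counts, or 45.8, 49.3 and 47.6 FPKM. The control was the lowest of these levels, and the range was narrow. Its log2 fold change was 0.08 ± 0.12 (SE, 2 libraries against 1) with an adjusted p of 0.846 in edgeR's quasi-likelihood test. With the length and GC trends removed the log2 fold change was -0.06. The SLC3A2 ratio to the control was then 1.00 (0.955 to 1.05) in PD-L1 knockdown 1 and 0.915 (0.874 to 0.958) in PD-L1 knockdown 2. The level of SLC7A11 divided by that of SLC3A2 in the same library was 0.412 in the control, 0.298 in PD-L1 knockdown 1 and 0.207 in PD-L1 knockdown 2. As the range of SLC3A2 was narrow, this quotient mostly restates the fall by which SLC7A11 was chosen. The trends were left in it. SLC3A2 also pairs with other light chains, of which SLC7A5, a carrier of large neutral amino acids, was at 144, 153 and 144 FPKM.

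The subunits of glutamate-cysteine ligase were slightly lower in both libraries labelled knockdown, without passing the test. GCLC, the catalytic subunit, on chromosome 6 from 53497341 to 53616970, had 4425, 4222 and 4476 counts, or 34.5, 33.0 and 32.8 FPKM. Its ratios to the control were 0.958 (upper bound 0.9998) and 0.945 (0.906 to 0.985), and its log2 fold change was -0.07 ± 0.11 with an adjusted p of 0.854. GCLM, the modifier subunit that raises the activity of GCLC, lies on chromosome 1 from 93885205 to 93909456. It had 2305, 2098 and 2139 counts, or 28.6, 26.2 and 25.0 FPKM. The GCLM ratios were 0.914 (0.861 to 0.970) and 0.867 (0.817 to 0.920), with a log2 fold change of -0.17 ± 0.12 and an adjusted p of 0.608. Once the trends were removed the ratios of GCLC were 1.02 and 1.04 and those of GCLM were 0.989 and 1.01, so neither gene kept both intervals below 1. The FPKM of GCLC divided by that of GCLM, with the trends left in, was 1.20, 1.26 and 1.31. GCLC overlaps AL033397.1, with 2, 3 and 2 counts, and AL033397.2, with 34, 23 and 14.

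GPX4, the peroxidase of membrane lipids, was higher in both libraries labelled knockdown in counts, but did not pass the adjusted test. It lies on chromosome 19 from 1103926 to 1106791 and had 2844, 3258 and 3962 counts, or 94.9, 109 and 124 FPKM. The ratios to the control were 1.15 (1.09 to 1.21) and 1.30 (1.24 to 1.37). The log2 fold change was 0.29 ± 0.12 with an adjusted p of 0.280 in edgeR's test over all genes. GPX4 is short, at 2019 bases, and rich in GC, at 62.5%. Once both trends were removed its ratios were 0.973 (0.925 to 1.02) and 1.01 (0.966 to 1.06).

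TXNRD1 and NQO1, enzymes that reduce thioredoxin and quinones, were the most abundant of the 10 genes. NQO1, on chromosome 16 from 69706996 to 69726951, had 17962, 19061 and 19085 counts, or 372, 396 and 371 FPKM, and was the 44th, 44th and 45th most abundant gene. Its log2 fold change was 0.04 ± 0.10 with an adjusted p of 0.919, and it was at 0 to the second decimal with the trends removed. TXNRD1, on chromosome 12 from 104215779 to 104350305, had 31449, 31550 and 30300 counts, or 316, 318 and 286 FPKM. Its level in PD-L1 knockdown 2 was below the other 2 libraries, with a ratio to the control of 0.900 (0.886 to 0.914), but the log2 fold change of both libraries together was -0.07 ± 0.10 with an adjusted p of 0.843. With the trends removed the TXNRD1 ratio in PD-L1 knockdown 2 was 0.976 (0.961 to 0.992), and the log2 fold change of both libraries together was 0.02. TXNRD1 overlaps RPL18AP3, with 644, 704 and 749 counts, EID3, with 93, 99 and 121, and AC089983.1, with 18, 21 and 37. These counts are small beside its own.

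HMOX1, the heme oxygenase that breaks heme down to biliverdin, iron and carbon monoxide, had the largest log2 fold change of the 9 genes tested. It lies on chromosome 22 from 35380361 to 35394214 and had 609 counts in the control, 708 in PD-L1 knockdown 1 and 939 in PD-L1 knockdown 2, or 17.1, 19.9 and 24.7 FPKM. The ratios to the control were 1.17 (1.05 to 1.30) and 1.44 (1.30 to 1.60). Its log2 fold change of 0.38 ± 0.15 had an adjusted p of 0.261 in edgeR's test, so it did not pass. With the length and GC trends removed the ratio was 1.02 (0.911 to 1.13) in PD-L1 knockdown 1 and 1.16 (1.05 to 1.29) in PD-L1 knockdown 2, where it stayed above 1.

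Neither regulator, NFE2L2 or KEAP1, passed the test. NFE2L2, on chromosome 2 from 177227595 to 177392697, had 1498, 1500 and 1430 counts, or 16.9, 17.0 and 15.1 FPKM, with a log2 fold change of -0.08 ± 0.13 and an adjusted p of 0.859. Its ratio to the control was 0.892 (0.829 to 0.959) in PD-L1 knockdown 2, and 0.962 (0.894 to 1.03) with the trends removed. NFE2L2 overlaps AGPS on the other strand, with 1578, 1487 and 1573 counts, and 15.0% of its 31-base words also occur in AC019080.1, with 70, 69 and 52 counts, so that its counts carry that uncertainty. KEAP1, on chromosome 19 from 10486120 to 10503741, had 1174, 1321 and 1578 counts, or 21.0, 23.8 and 26.6 FPKM. Its ratios were 1.13 (1.04 to 1.22) and 1.26 (1.16 to 1.36), and its log2 fold change of 0.25 ± 0.13 had an adjusted p of 0.428. With the trends removed the KEAP1 ratios were 1.01 and 1.05, with intervals that held 1. The level of NFE2L2 divided by that of KEAP1 was 0.803, 0.714 and 0.570 in the same order of libraries. The trends were left in this quotient, and the GC content was 45.6% for NFE2L2 and 60.3% for KEAP1. With them removed, the NFE2L2 ratio to the control was 1.04 in PD-L1 knockdown 1, beside 1.01 for KEAP1. In PD-L1 knockdown 2 it was 0.962, beside 1.05 for KEAP1. RNA levels do not report how much NRF2 protein the cells held.

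**Figure D2:**
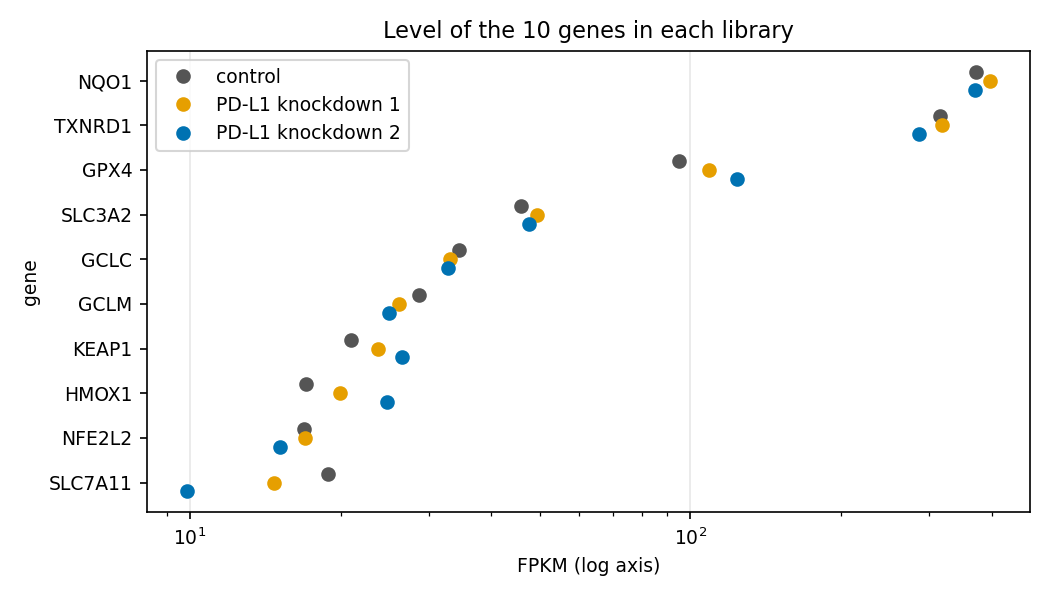
Each row is a gene and the x axis its level in FPKM on a log axis, with 1 point per library (grey, control; orange, PD-L1 knockdown 1; blue, PD-L1 knockdown 2). The mean levels run from 380 FPKM for NQO1 to 14.5 FPKM for SLC7A11, and SLC7A11 is spread most widely, from 9.88 to 18.9 FPKM.

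By mean FPKM the order of the 10 genes was NQO1 at 380, TXNRD1 at 307, GPX4 at 109, SLC3A2 at 47.6, GCLC at 33.4, GCLM at 26.6, KEAP1 at 23.8, HMOX1 at 20.6, NFE2L2 at 16.3 and SLC7A11 at 14.5. The ranges over the 3 libraries overlapped between the neighbours GCLM and KEAP1, KEAP1 and HMOX1, and NFE2L2 and SLC7A11. The other neighbours in the order did not overlap. SLC7A11 was above NFE2L2 and HMOX1 in the control and below both in PD-L1 knockdown 2.

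Of the 9 genes tested, 0 passed an adjusted p under 0.05 in edgeR's quasi-likelihood test, and 2, GPX4 and HMOX1, had an unadjusted p under 0.05, as did 11.7% of all genes tested. DESeq2's Wald test also called 0. Over all 19849 genes tested, edgeR called 0.106% lower and 0.247% higher. The log2 fold change was above 0 for 5 of the 9 genes and below 0 for 4. The counting intervals lay below 1 in both libraries labelled knockdown for 2 of the 9 genes, GCLC and GCLM, against 13.7% of the 10861 genes. They lay above 1 in both for GPX4, HMOX1 and KEAP1, which is 3 genes, against 16.8%. At each step, from the control to PD-L1 knockdown 1 and from there to PD-L1 knockdown 2, these same 3 genes had intervals above 1. So did 5.53% of genes. The opposite order is that by which SLC7A11 was chosen. With intervals below 1 at each step, it was held by 0 of the other 9 and by 4.41% of genes. In ratio alone, GCLC and GCLM also fell at each step, as did 2861 of the 10861 genes. With the length and GC trends removed, none of the 9 genes had both intervals on one side of 1. SLC7A11 kept both below 1.

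**Figure D3:**
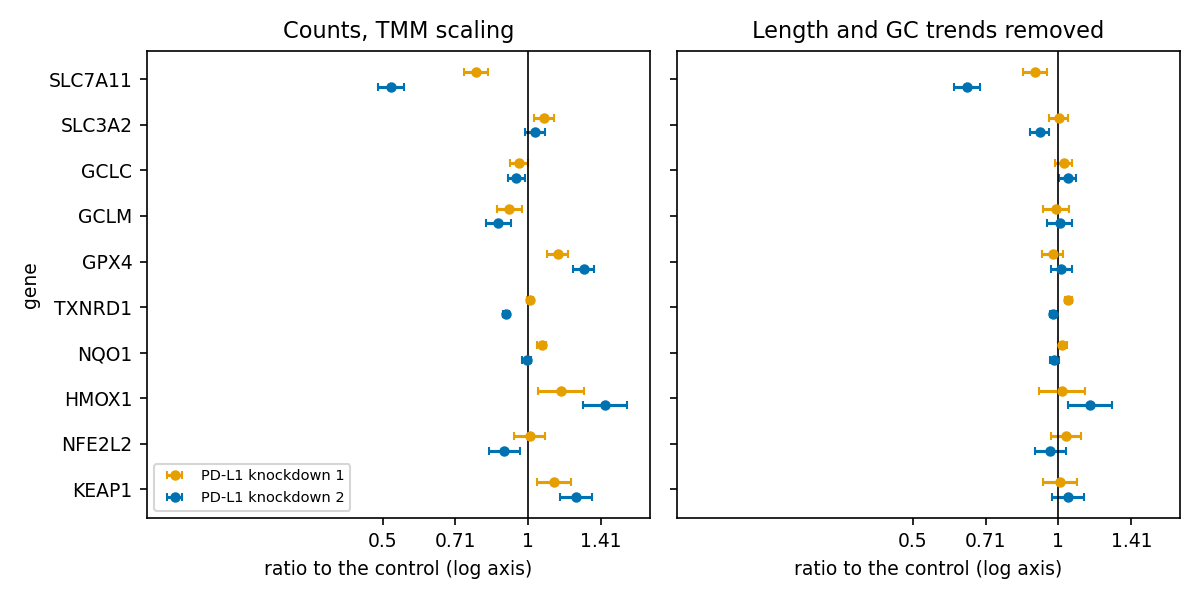
The x axis is the ratio to the control on a log axis and each row a gene, in orange for PD-L1 knockdown 1 and blue for PD-L1 knockdown 2, with exact 95% counting intervals as bars. The left panel uses the counts with TMM scaling and the right panel the same counts with the length and GC trends removed, where SLC7A11 stays at 0.894 and 0.648 and GPX4 moves to 0.973 and 1.01.

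Among the 5 genes with the values most like those of SLC7A11 were SAMD9, STX7, CRY1 and PARP11. Likeness was measured as the distance between the 2 log2 ratios to the control, over 3 libraries and the 10861 genes, and ranged from 0.0823 to 0.138 for these genes. SAMD9, an interferon-induced antiviral factor, had 295, 231 and 173 counts, with ratios of 0.787 and 0.548. STX7, a syntaxin of late endosome fusion, had 703, 512 and 413 counts, with ratios of 0.732 and 0.549. CRY1, a repressor of the circadian clock, had 239, 186 and 144 counts, with ratios of 0.782 and 0.563. PARP11, a mono-ADP-ribosyltransferase, had 131, 98 and 79 counts, with ratios of 0.751 and 0.563. The GC content of these 4 genes was between 36.0% and 39.1%, against 35.4% for SLC7A11. They were picked for these values, so the likeness itself is no result.

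**Figure D4:**
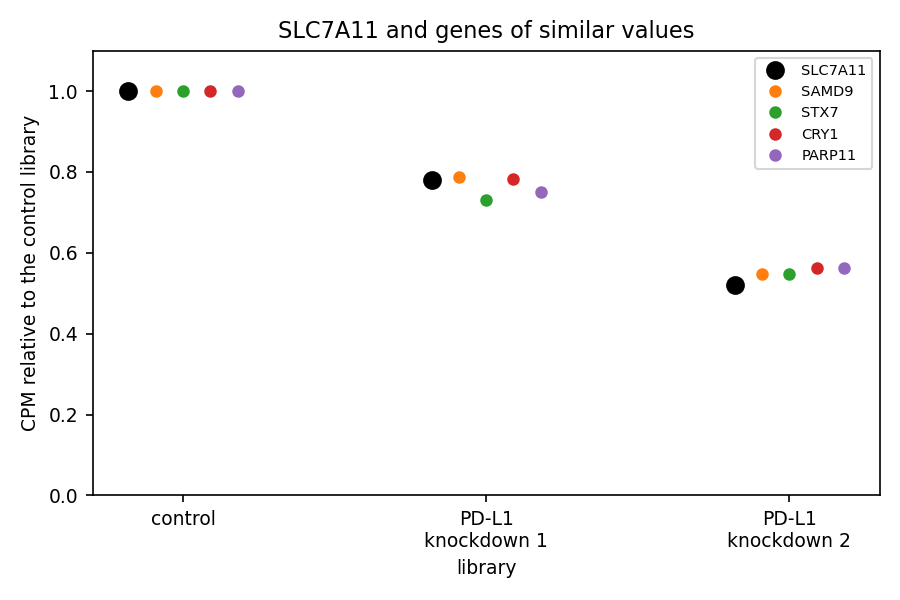
The y axis is the CPM of each gene divided by its CPM in the control and the x axis the library, with 1 point per gene, SLC7A11 being the large black point. The 4 other genes lie between 0.732 and 0.787 in PD-L1 knockdown 1 and between 0.548 and 0.563 in PD-L1 knockdown 2, beside 0.780 and 0.520 for SLC7A11.

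The rest of the pathway was described by 9 gene lists, which hold 148 genes besides the 10. Of these, 142 were tested and 2 passed the adjusted test, CBS in the lower direction and PRDX5 in the higher, and 22 had an unadjusted p under 0.05, against 2329 of all 19849 genes. Of 119 that reached a mean of 100 counts, 33 had both counting intervals above 1 and 11 both below, where the shares over all genes were those given above, 16.8% and 13.7%. The median log2 fold change of these 119 was 0.07, against 0.00 over all 10861 genes, and was 0.00 with the length and GC trends removed. The lists overlap in some genes and their genes are counted once here.

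CBS, the cystathionine synthase that starts the making of cysteine from homocysteine, fell in edgeR's test. It had 598 counts in the control, 251 in PD-L1 knockdown 1 and 487 in PD-L1 knockdown 2, with a log2 fold change of -0.75 ± 0.16 and an adjusted p of 0.00293. The lower value was that of PD-L1 knockdown 1, at 0.422 of the control (0.362 to 0.489), while PD-L1 knockdown 2 was at 0.761 (0.674 to 0.859), so its order was not that of SLC7A11. CBS shares 55.9% of its 31-base words with its near-identical copy CBSL, which had 78, 69 and 13 counts, so that the split of reads between the copies is uncertain. With the length and GC trends removed the log2 fold change was -0.89 with an adjusted p of 0.0460, and DESeq2's Wald test gave an adjusted p of 1.00. Of the 13 genes of glutathione synthesis and turnover, all were tested, CBS alone passed and 0 rose. Among its genes of 100 or more counts on average, the next largest changes were LANCL1 at -0.28, OPLAH at 0.27, GGT7 at -0.15 and GGCT at 0.08, and none of these passed.

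PRDX5, a peroxiredoxin of mitochondria and peroxisomes, rose in edgeR's test. It had 1486, 1956 and 2451 counts, with ratios to the control of 1.32 (1.24 to 1.42) and 1.54 (1.44 to 1.64), a log2 fold change of 0.52 ± 0.12 and an adjusted p of 0.0202. Without the trends its log2 fold change was 0.12 with an adjusted p of 0.845, and the Wald test of DESeq2 gave 1.00. It was the 1 gene that passed among the 18 of the thioredoxin and peroxiredoxin system. Beside it SRXN1, the sulfiredoxin that repairs oxidised peroxiredoxins, had 455, 578 and 800 counts, with a log2 fold change of 0.55 and an adjusted p of 0.0860. SRXN1 shares 84.9% of its 31-base words with AL121758.1, which had 10, 10 and 8 counts. GLRX5 was at 0.38, PRDX2 at 0.27 and TXNRD2 at 0.27 on the log2 scale, without passing.

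Among 19 glutathione peroxidases and transferases, 0 passed and 4 had an unadjusted p under 0.05. GPX1, the cytosolic peroxidase, was at 1022, 1385 and 1537 counts, a log2 fold change of 0.47 with an adjusted p of 0.0716, but 0.09 with the trends removed. It shares 22.3% of its words with other genes, among them GPX1P1. GSTP1 was at 0.39, GSTO1 at 0.27 and GPX8 at -0.30. Of 28 other NRF2 target genes, 26 were tested, 0 passed and 4 had an unadjusted p under 0.05, and CES1 and UGT1A6 had 0 counts in every library. The values of BLVRB were 506, 703 and 833 counts, with a log2 fold change of 0.55 and an adjusted p of 0.0678. OSGIN1 was at 0.39 and AKR1C3 at 0.28. Of the 24 target genes that reached a mean of 100 counts, 10 had both counting intervals above 1 and 1 had both below. Over all 10861 genes of that level the shares were 16.8% above and 13.7% below. The median log2 fold change of the 24 target genes was 0.11, and -0.02 with the trends removed.

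Among 17 NRF2 regulators and partners, 0 passed and 1 had an unadjusted p under 0.05. MAFK, a small MAF protein that binds DNA together with NRF2, was at 660, 759 and 1198 counts, a log2 fold change of 0.51 with an adjusted p of 0.0684. BACH1, a repressor that competes with NRF2, had 1132, 953 and 1013 counts and was at -0.25. PALB2 was at -0.29 and RBX1, of the ligase that acts with KEAP1, at 0.25. Among 22 ferroptosis genes 21 were tested, 0 passed and 2 had an unadjusted p under 0.05, with DHODH at 0.35, HSPB1 at 0.27, AIFM2 at 0.26 and GCH1 at -0.23. Of 12 light chains and cystine or cysteine carriers, 9 were tested, 0 passed and 1 had an unadjusted p under 0.05. SLC7A6, a light chain of cationic and neutral amino acid exchange, was at 659, 859 and 985 counts, a log2 fold change of 0.44 with an adjusted p of 0.170. Of the other carriers with 100 or more counts on average, CTNS was at 0.15, SLC1A5 at 0.14 and SLC7A5 at 0.04.

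Of 12 genes around ATF4, the stress factor that also drives SLC7A11, 0 passed and 2 had an unadjusted p under 0.05. ATF4 itself was at 4915, 5237 and 5277 counts, a log2 fold change of 0.05. DDIT3, an ATF4 target of the stress response, had 81, 115 and 129 counts, at 0.54 with an adjusted p of 0.404. PSAT1, of serine synthesis, had 7309, 6739 and 5724 counts, at -0.27 with an adjusted p of 0.287. CEBPB was at 0.21 and ATF3 at 0.14. Of 19 genes of selenoproteins and their synthesis, the class to which GPX4 and TXNRD1 belong, 0 passed and 3 had an unadjusted p under 0.05. Those 3 were GPX1 and SELENOW, at 0.47 and 0.42, and SELENOP, a secreted carrier of selenium, at -1.62 from 27, 6 and 12 counts, which was named after its values were seen. SELENOM and SELENOH were both at 0.28. The Wald test of DESeq2 called 0 genes outside the 10 in any list.

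The median log2 fold change, over the genes of each list that reached a mean of 100 counts, was -0.01 for glutathione synthesis and turnover, 0.11 for the peroxidases and transferases, and 0.07 for the thioredoxin and peroxiredoxin system. For the NRF2 regulators it was 0.06, for the ferroptosis genes 0.02, for the light chains and carriers 0.14, for the genes around ATF4 0.05 and for the selenoprotein genes 0.11. With both trends taken out, the medians of the ferroptosis genes, the carriers and the genes around ATF4 turned to -0.01, -0.06 and -0.14, as that of the NRF2 targets turned to -0.02. The other lists kept their sign, at -0.06 for glutathione synthesis and between 0.02 and 0.05 for the rest.

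**Figure D5:**
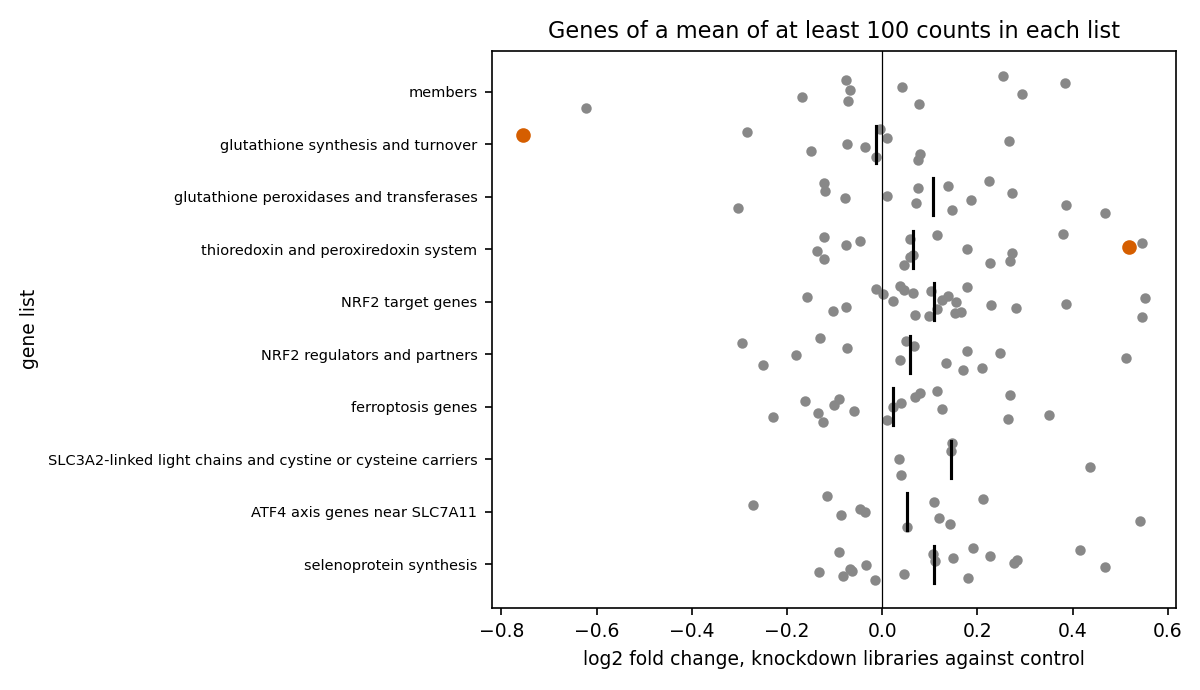
Each row is a list and the x axis the log2 fold change of PD-L1 knockdown 1 and 2 together against the control, with 1 point per gene of a mean of at least 100 counts and a black bar at the median of each list but the top one. The orange points are CBS at -0.75 and PRDX5 at 0.52, the genes that passed the adjusted test, and the leftmost point of the top row is SLC7A11 at -0.62, which was not tested.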

How the data were processed

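RNA of DU145 cells, enriched for mRNA with oligo(dT) beads, was sequenced in 3 libraries, 1 control and 2 labelled PD-L1 knockdown. The authors deposited raw read counts for 58735 genes of GENCODE release 29 (GRCh38). The deposited FPKM were checked to be the count divided by listed gene length and by a constant per library. The submitters' processing notes name Bowtie2 2.0.6, TopHat2 2.0.9, Cufflinks 2.1.1 and Cuffdiff 2.1.1. The counting tool for the deposited counts and its strand setting are not given in the sources used here.

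Genes with at least 10 summed counts were fitted with edgeR 4.0.16 in R 4.3.3 (TMM normalization, glmQLFit, glmQLFTest, Benjamini-Hochberg adjustment over 19849 genes), comparing PD-L1 knockdown 1 and 2 together with the control. This leaves 1 residual degree of freedom per gene, and a gene's spread was taken from all genes of similar mean count. The fitting was tested on simulated data. No test for the RNA-seq is named in the paper. Ratios of single libraries use TMM-scaled counts, with exact conditional binomial 95% intervals. The trends were the mean log2 ratios of genes in 20 classes of length and 20 of GC content, removed as an offset. Shared sequence is given as the part of all 31-base words of a gene that other genes also hold, in percent.

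The members and lists were chosen with earlier results of these data known. Named are the 10 members, CD274, genes that overlap a member (only those with values that matter are listed), the 5 genes nearest to SLC7A11 (prior count 2), and from each list every gene past the adjusted p and otherwise up to 4 genes of largest change with a mean of at least 100 counts. ATF4 and marker genes were named besides. Some genes that these rules select are not reported here. Alternatives were DESeq2 1.42.0, its size factors, library totals, other count filters, the trend offset, each knockdown library left out, and log2(FPKM + 1) or log2(FPKM + 0.1), a scale that understates the change of low genes.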

Additional observations from a re-analysis of the deposited data

How the results depend on the processing

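Removing the length and GC trends turned the log2 fold change of SLC3A2 to -0.0628, GCLC to 0.0491, GPX4 to -0.00913, TXNRD1 to 0.0175 and NQO1 to -0.000231, none of which passed the test either way. Counted over all 10 genes, the removal left 1 in place of 3 with both intervals below 1. That 1 was SLC7A11, which was chosen for being lower, so the count is no support. The removal left 0 in place of 3 with both above 1, and 0 in place of 3 with intervals above 1 at each step. Shares over all genes with the trends removed are not given here. Past the adjusted p the removal left 1 of the other pathway genes, CBS, in place of 2, and 22 of all genes in place of 70. DESeq2's Wald test called 0 of the pathway genes and 6 of all genes. Of the 9 members tested, 0 passed under any fit. SLC7A11 was chosen for its fall in these same libraries, so its sign under other settings is a description and no support. Its log2 fold change stayed below 0 throughout. It was -0.38 with the trends removed, -0.60 with log2(FPKM + 1), -0.94 without PD-L1 knockdown 1 and -0.36 without PD-L1 knockdown 2, against -0.62. With 1 library against 1, those last values carry no test. No paired analysis was possible because there is a single control library. A difference between that culture and the others cannot be told apart from the knockdown. Depth limits genes at or under 3 counts.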
